A study of Mus musculus with 6 samples.

Results

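Transcripts of 34 nuclear receptor genes were examined in mouse liver. They are the members of the nuclear receptor superfamily without the clock receptors (such as *Nr1d1* and *Nr1d2*) and without *Nr0b2*, *Nr1h4* and *Nr5a2*, the receptors best known for bile acid control. Some further receptors, such as *Hnf4a* and *Esr2*, were also not among the 34. Membership is a list of gene names, and all 34 were found among the 24346 genes of the deposited table. Of these, 25 averaged 0.5 FPKM or more (fragments per kilobase of transcript, scaled to the mapped total of the library) over the 6 libraries and were tested, as were 11956 genes of the whole table.

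The libraries came from whole livers of male C57/BL6 mice aged 8 weeks, each injected with CCl4 (carbon tetrachloride, a solvent that hepatocytes convert to a toxic radical) at 0.6 μl per g body weight and killed 24 hours later. The comparison was between the floxed controls (med23f/f, labelled wt, n = 3) and mice that delete *Med23* in the liver (med23Δli, labelled med23 ko, n = 3). MED23 is a subunit of Mediator, the complex that links transcription factors to RNA polymerase II. The study obtained med23Δli mice with Albumin-cre, which acts in hepatocytes, so the other cells of the liver keep the gene. Both groups were treated, so the comparison is between genotypes after injection and gives no value for untreated liver. For this model the study reported much necrosis in control livers and hardly any in med23Δli livers. Genotype and extent of injury therefore cannot be told apart here, and the part of injury in the receptor values was not tested.

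Nuclear receptors are transcription factors, many of which are switched by small lipophilic ligands such as fatty acids, oxysterols, retinoids, thyroid hormone, steroids and foreign chemicals. Most bind copies of the hexamer AGGTCA or a close relative, several of them as heterodimers with a retinoid X receptor (RXR). In hepatocytes the family controls fat burning, lipid synthesis, cholesterol export and the breakdown of drugs, and liganded receptors recruit Mediator as one of their coactivators.

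*Med23* itself was listed at 3.42, 2.97 and 4.14 FPKM in the control livers and at 3.40, 3.40 and 2.91 FPKM in the med23Δli livers. The groups overlapped (log2 fold change −0.11, SE 0.17, adjusted p = 0.685, limma). The value covers every exon and every cell of the liver, and it does not tell the labels apart. Each library listed 7628 to 9341 genes at 0, and the depth of each single library cannot be read from FPKM values, which carry no counts. Among the markers, the 7 genes of the liver endothelium list all fell, with a median log2 fold change of −1.03 and a summed level of 109 to 152 FPKM in controls against 56.2 to 61.8 FPKM in med23Δli livers, and 5 to 7 of them passed when 1 library was left out. Of 7 tested pericentral hepatocyte markers 3 rose (*Cyp2e1* by 1.26 on the log2 scale) and the summed level went from 379 to 523 FPKM to 799 to 959 FPKM. Of the general hepatocyte markers 1 of 7 fell, of the periportal markers 2 of 6, of the Kupffer cell and macrophage markers 1 of 8 and of the stellate cell markers 1 of 8. With 1 library left out these counts of lower markers were 0 to 2, 1 to 3, 0 to 2 and 0 or 1. No tested marker of cholangiocytes (5 genes), neutrophils (4), erythroid cells (2), adipocytes (3) or pancreatic acinar cells (1) passed, though 0 or 1 neutrophil and 0 or 1 erythroid marker was lower with 1 library left out, and no lymphocyte or skeletal muscle marker reached a mean of 0.5 FPKM. The part of these markers in the receptor values was not tested.

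Promoters are shown for *Nr1i3*, *Nr1i2* and *Rxrg*, which passed the test described below in each fit that left out 1 library, so that the hexamer can be looked for in promoters of the family itself. Each window is free of annotated exons and holds the 250 bases before a RefSeq transcription start on GRCm38.p6 (mm10), written 5′ to 3′ on the strand of the gene. Capitals mark the hexamer AGGTCA or the E-box CACGTG on either strand. *Nr1i3* lies at chr1:171213720-171213969 on the plus strand, *Nr1i2* at chr16:38294825-38295074 on the minus strand and *Rxrg* at chr1:167618015-167618264 on the plus strand, the second of 2 RefSeq starts of that gene.
Nr1i3: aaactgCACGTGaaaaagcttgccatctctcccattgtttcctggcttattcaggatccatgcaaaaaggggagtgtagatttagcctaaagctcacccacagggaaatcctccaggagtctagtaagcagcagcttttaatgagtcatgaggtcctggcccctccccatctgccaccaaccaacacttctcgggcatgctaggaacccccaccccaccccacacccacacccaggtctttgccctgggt
Nr1i2: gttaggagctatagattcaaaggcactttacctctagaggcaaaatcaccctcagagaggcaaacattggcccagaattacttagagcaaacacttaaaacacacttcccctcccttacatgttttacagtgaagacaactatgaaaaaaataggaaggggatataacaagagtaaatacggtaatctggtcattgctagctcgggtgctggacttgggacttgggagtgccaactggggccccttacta
Rxrg: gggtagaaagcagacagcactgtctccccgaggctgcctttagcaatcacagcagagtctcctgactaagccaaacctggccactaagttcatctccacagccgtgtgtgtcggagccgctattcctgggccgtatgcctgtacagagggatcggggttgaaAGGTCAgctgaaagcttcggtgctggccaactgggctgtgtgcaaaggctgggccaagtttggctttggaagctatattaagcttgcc

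The *Nr1i3* window held 1 CACGTG, which begins 244 bases before the start, and the *Rxrg* window held 1 AGGTCA, which begins 88 bases before the start. The *Nr1i2* window held neither, and the window at the other RefSeq start of *Rxrg* held no AGGTCA. *Pparg*, which also passed in each such fit, has 3 RefSeq starts, of which 2 had an AGGTCA in the window. The third, the one with no annotated exon within the 250 bases before the start, had none. RefSeq windows of 300 bases (250 before to 50 after the start) were matched for 31 of the 34 genes, with 49 windows in all. AGGTCA on either strand was found in 8 of these 49 windows (16.3%), the same share as in the 32851 windows of all genes (16.3%). The members with such a hexamer were *Nr6a1*, *Pparg*, *Rarg*, *Rxrg*, *Rara*, *Rxra* and *Thrb*. CACGTG occurred in windows of *Nr1i3*, *Rara* and *Thrb* and in 7.15% of all windows. Exact direct repeats of AGGTCA with 1 base (DR1) or 4 bases (DR4) between the copies occurred in 0 of the 49 windows, against 13 and 5 of all windows, and TTATGTAA, a letter string bound by PAR bZIP factors, in 0 against 0.938%. Among the receptors that rose, the upstream windows of *Nr1i3* and *Nr1i2* held 2 CpG each, those of *Nr6a1* 4 and 7, those of *Pparg* 38, 12 and 2, and those of *Rxrb* 31 and 39. Among those that fell, *Nr2f6* had 42, *Esrra* 22, *Rarg* 11 and 10, and *Rxrg* 6 and 7, beside a median of 6 over all windows. A match of letters is a description and says nothing of binding in these livers.

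Of the 25 tested receptors, 5 were higher in med23Δli livers (20%, where 11.6% of all tested genes were higher), 4 were lower (16%, where 9.48% were lower) and 16 did not pass. In either direction 9 of 25 (36%) passed, beside 21.1% of all tested genes. *Nr1i3*, *Pparg*, *Nr6a1*, *Rxrb* and *Nr1i2* rose, and *Rxrg*, *Nr2f6*, *Rarg* and *Esrra* fell. Changes that also exceeded 2-fold were found for 4 receptors (16%, beside 7.9% of all genes), namely *Nr1i3*, *Pparg*, *Nr6a1* and *Rxrg*. The 3 libraries of a genotype did not overlap with those of the other for 12 of the 25 receptors (48%), beside 43.7% of all tested genes, a share near the background. The median log2 fold change of the 25 was −0.09 and that of all tested genes 0.02. *Nr1i3*, *Pparg*, *Nr1i2* and *Rxrg* passed in each of the 6 fits that left out 1 library. The other 5 passing receptors each lost the call in at least 1 of those fits, as given with each below. In whole liver, fewer cells of a type and less RNA per cell cannot be told apart.

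**Figure D1:**
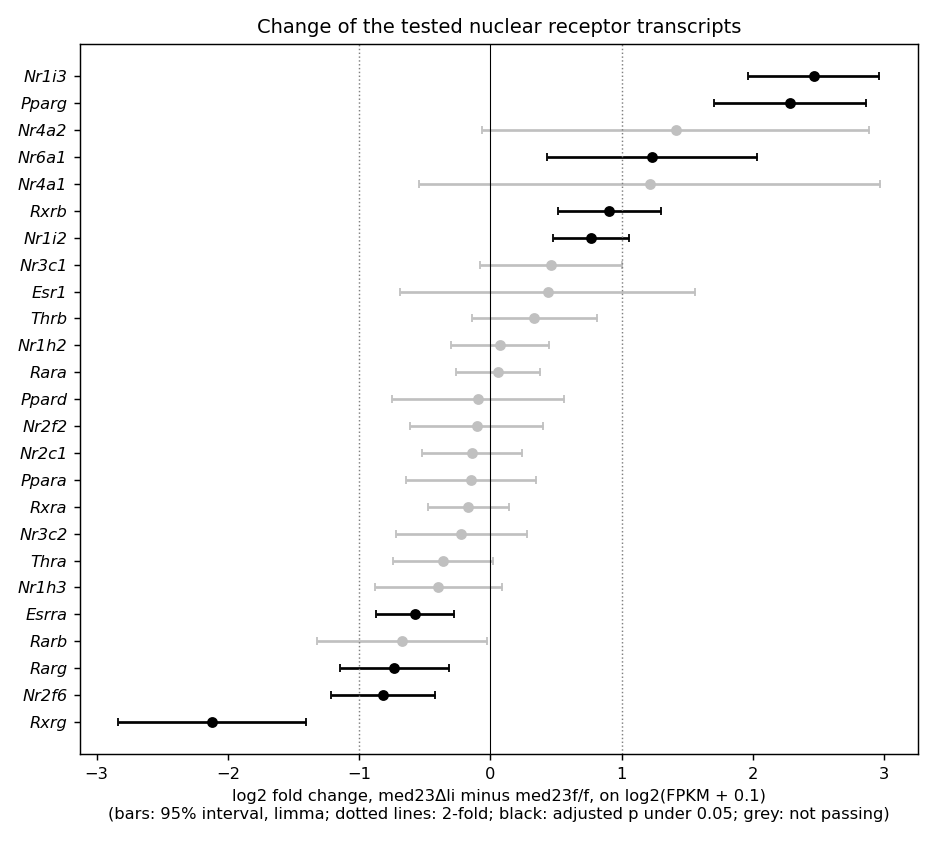
Log2 fold change (med23Δli minus med23f/f, on log2(FPKM + 0.1)) of the 25 tested receptors, with 95% intervals from limma; black points have an adjusted p under 0.05. *Nr1i3* and *Pparg* sit at 2.46 and 2.28 and *Rxrg* at −2.12, while the grey points reach from −0.68 (*Rarb*) to 1.41 (*Nr4a2*).

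The levels of the receptors spanned several orders of magnitude. FPKM is scaled to transcript length, so genes can be set beside each other. In controls 9 members had a mean above 10 FPKM, 14 lay between 1 and 10 FPKM and 11 lay under 1 FPKM. By the mean over the 6 libraries the order began with *Nr2f6* (85.0 FPKM), *Rxra* (72.0 FPKM), *Nr1h3* (49.7 FPKM), *Nr1h2* (39.9 FPKM), *Rxrb* (28.7 FPKM) and *Esrra* (23.9 FPKM). This order pools the genotypes. In controls *Esrra* (28.7 FPKM) stood above *Rxrb* (20.1 FPKM), and in med23Δli livers *Rxra* (67.6 FPKM) stood above *Nr2f6* (61.0 FPKM) and both *Nr1i3* (31.2 FPKM) and *Nr1i2* (19.5 FPKM) above *Esrra* (19.2 FPKM). The libraries of neighbours in the pooled order overlapped in range, for example *Nr2f6* (56.5 to 136 FPKM) with *Rxra* (65.8 to 86.2 FPKM) and *Nr1h3* (39.9 to 71.3 FPKM) with *Nr1h2* (32.6 to 47.7 FPKM). Summed over the 34 genes, receptor transcripts made up 398 to 459 FPKM in controls and 387 to 413 FPKM in med23Δli livers, so the groups overlapped in total receptor transcript.

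**Figure D2:**
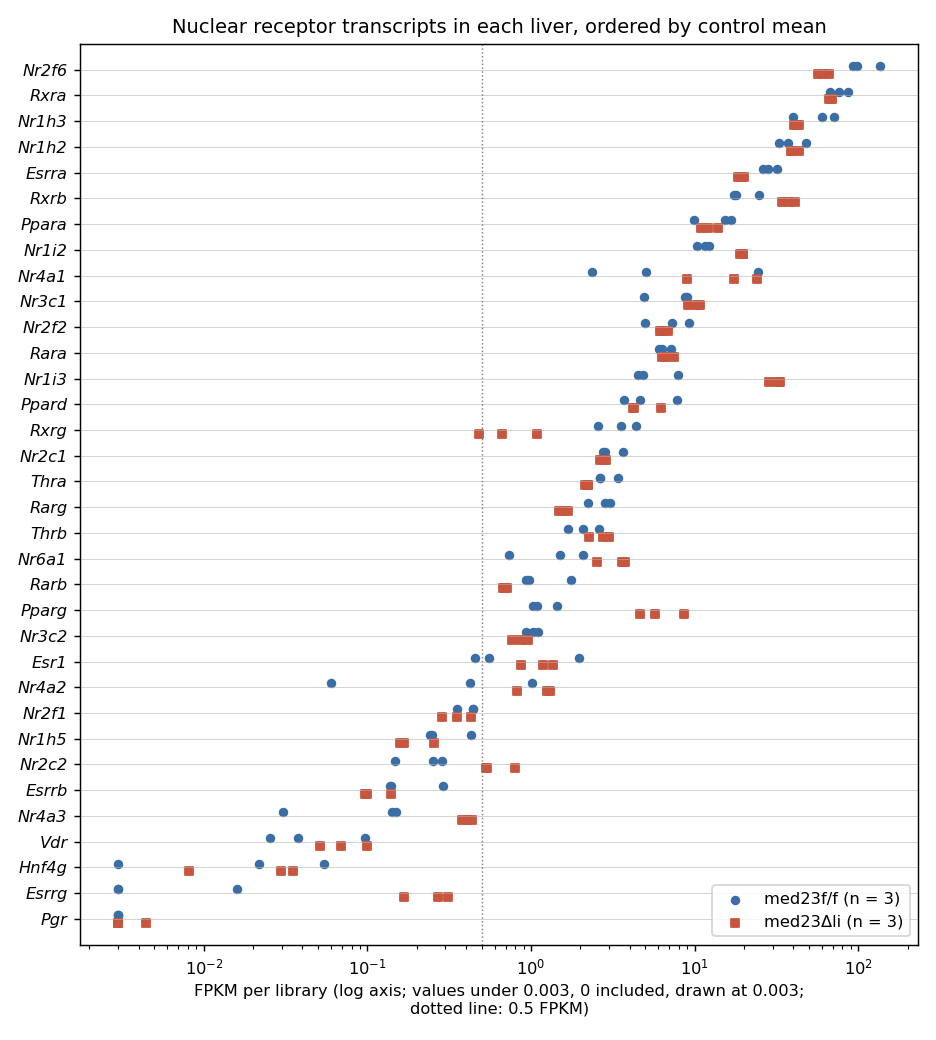
FPKM of the 34 receptors in each of the 6 livers on a log axis, ordered by the control mean, with values under 0.003 drawn at 0.003 and the 0.5 FPKM filter as a dotted line. *Nr2f6* and *Rxra* are at the top, *Pgr* is at 0 in 5 livers, and the red and blue points of *Nr1i3*, *Pparg* and *Rxrg* lie apart.

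The RXRs are the shared partners of many other receptors, and among their 3 genes 1 rose, 1 fell and 1 did not pass. *Rxrb*, which encodes the widely expressed RXRβ (chr17:34031812-34038399; gene positions here and below are those of GENCODE M21 on mm10), was at 17.9, 17.5 and 24.8 FPKM in controls and at 40.8, 37.1 and 34.0 FPKM in med23Δli livers. The lowest med23Δli liver lay above the highest control. *Rxrb* rose from 20.1 ± 4.10 to 37.3 ± 3.43 FPKM (SD, n = 3), a change of 0.91 on the log2 scale (SE 0.17, adjusted p = 0.0116, limma). Without med23Δli replicate 1 the adjusted p was 0.0576. *Rxrg*, which encodes RXRγ, known from muscle and brain (chr1:167598384-167639623), was at 3.55, 4.36 and 2.55 FPKM in controls and at 0.660, 0.483 and 1.09 FPKM in med23Δli livers. No med23Δli liver reached the lowest control. *Rxrg* fell 4.69-fold, from 3.49 ± 0.907 to 0.744 ± 0.311 FPKM (SD, n = 3), a change of −2.12 on the log2 scale (SE 0.31, adjusted p = 0.00585, limma). *Rxra*, the main hepatic RXR, was at 86.2, 76.0 and 67.0 FPKM in controls and 68.9, 68.2 and 65.8 FPKM in med23Δli livers. The groups overlapped and *Rxra* did not pass (log2 fold change −0.17, 95% interval −0.48 to 0.14, adjusted p = 0.394, limma).

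The same values can be given as shares of the RXR sum, and that sum overlapped between genotypes. The shares of a family add up to a fixed total, so they are not separate results. The sum of the 3 genes was 99.9 ± 6.89 FPKM in controls and 106 ± 4.76 FPKM in med23Δli livers (SD, n = 3). *Rxra* made up 76.3 ± 4.68% of it in controls and 64.1 ± 1.46% in med23Δli livers, and *Rxrb* 20.3 ± 5.24% and 35.2 ± 1.66%. *Rxrg* made up 3.49 ± 0.893% and 0.711 ± 0.326%. For each of the 3 shares the groups did not overlap, and the two-sided exact permutation p was 0.1, the smallest that 3 against 3 livers can give (0.15 after Benjamini-Hochberg adjustment over 30 such comparisons in 8 families).

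CAR and PXR are sensors of foreign chemicals that switch on drug-metabolizing enzymes and transporters. *Nr1i3*, which encodes CAR (chr1:171213970-171220701), was at 4.50, 7.89 and 4.83 FPKM in controls and at 32.2, 33.0 and 28.3 FPKM in med23Δli livers. The 3 med23Δli livers lay close together and far above each control. *Nr1i3* rose 5.43-fold, from 5.74 ± 1.87 to 31.2 ± 2.49 FPKM (SD, n = 3), a change of 2.46 on the log2 scale (SE 0.22, adjusted p = 0.00130, limma). Leaving out any 1 library gave log2 fold changes of 2.31 to 2.71. In GENCODE M21 its exons overlap those of *Tomm40l* on the opposite strand, and no source used here says that strand was recorded. *Tomm40l* was at 13.3 ± 2.21 FPKM in controls and 15.3 ± 0.989 FPKM in med23Δli livers (log2 fold change 0.21, adjusted p = 0.351, limma).

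*Nr1i2*, which encodes PXR (chr16:38248323-38294824), was at 12.3, 11.6 and 10.3 FPKM in controls and at 19.9, 19.7 and 18.9 FPKM in med23Δli livers. Both groups were tight and did not overlap. *Nr1i2* rose 1.70-fold, from 11.4 ± 1.00 to 19.5 ± 0.503 FPKM (SD, n = 3), a change of 0.77 on the log2 scale (SE 0.13, adjusted p = 0.00778, limma). In controls *Nr1i2* exceeded *Nr1i3* in each liver, and in med23Δli livers the order was turned. CAR made up 33.0 ± 6.89% of the sum of the pair in controls and 61.5 ± 1.38% in med23Δli livers, and the sum went from 17.2 ± 2.20 to 50.6 ± 2.96 FPKM (SD, n = 3).

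Of 14 tested genes known as targets of CAR or PXR, 4 rose, 1 fell and 9 did not pass (median log2 fold change 0.30). With any 1 library left out, 3 to 5 were higher and 0 to 2 lower. *Abcc4*, an exporter of organic anions and bile acids, rose from 1.26 ± 0.421 to 10.1 ± 1.68 FPKM (log2 fold change 2.94, SE 0.24, adjusted p = 0.000918, limma). *Abcc2*, the canalicular exporter of conjugated bilirubin and drugs, rose from 15.6 ± 2.23 to 56.2 ± 11.9 FPKM (log2 fold change 1.83, SE 0.18, adjusted p = 0.00173, limma). *Cyp2c29*, a drug-metabolizing P450, rose from 28.6 ± 15.2 to 127 ± 32.6 FPKM (log2 fold change 2.26, SE 0.38, adjusted p = 0.00853, limma). These 3 passed in each fit that left out 1 library. *Cyp2c29* belongs to a family of near-identical genes, so its value is uncertain where fragments could be split among them.

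The PPARs sense fatty acids: PPARα drives fat burning in hepatocytes, PPARδ is widely expressed, and PPARγ drives fat storage, mainly in adipocytes. *Pparg* (chr6:115360951-115490399) was at 1.08, 1.03 and 1.45 FPKM in controls and at 5.71, 8.56 and 4.60 FPKM in med23Δli livers. The lowest med23Δli liver lay well above the highest control. *Pparg* rose 5.30-fold, from 1.19 ± 0.226 to 6.29 ± 2.04 FPKM (SD, n = 3), a change of 2.28 on the log2 scale (SE 0.25, adjusted p = 0.00237, limma). The highest value was that of med23Δli replicate 2, in which adipocyte transcripts were also highest. The summed level of 9 adipocyte markers was 41.5 FPKM in that liver, 0.540 and 0.270 FPKM in med23Δli replicates 1 and 3, and 0.273 to 0.714 FPKM in controls. *Adipoq* was at 5.65 FPKM in that liver, 0.0907 FPKM in med23Δli replicate 3 and 0 in the other 4 libraries, and *Plin1*, *Lep* and *Ucp1* were at 0 in the other 5. Without that library the log2 fold change of *Pparg* was 2.04, at an adjusted p of 0.00813 (limma).

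*Ppara* was at 9.87 to 16.8 FPKM in controls and 10.9 to 14.0 FPKM in med23Δli livers (log2 fold change −0.15, 95% interval −0.65 to 0.34, adjusted p = 0.636, limma). *Ppard* was at 3.71 to 7.81 and 4.23 to 6.21 FPKM (log2 fold change −0.09, adjusted p = 0.841, limma), and its sign turned without control replicate 1 (log2 fold change 0.21). Both overlapped between genotypes. *Pparg* thus made up 5.77 ± 0.968% of the PPAR transcripts in controls and 26.3 ± 5.43% in med23Δli livers (SD, n = 3).

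Of 5 tested genes known as PPARγ targets in fat or fatty liver, none rose, 1 fell and 4 did not pass (median log2 fold change −0.26), and 1 or 2 were lower with 1 library left out. *Fabp4* of this list was at 53.2 to 66.3 FPKM in controls and at 23.2, 177 and 32.0 FPKM in med23Δli livers, the high value in the liver with the highest adipocyte transcripts. The one that fell was *Cidec*, a lipid droplet protein, from 47.8 ± 29.2 to 5.36 ± 3.93 FPKM (log2 fold change −3.24, SE 0.67, adjusted p = 0.0161, limma). With 1 library left out the *Cidec* change ran from −3.80 to −2.56. Of 18 genes known as PPARα targets, 3 rose, 2 fell and 13 did not pass (median log2 fold change 0.43). With 1 library left out, 2 to 6 of them were higher and 1 or 2 lower. Among them *Acadm*, an enzyme of fatty acid oxidation, rose from 110 ± 5.54 to 235 ± 22.0 FPKM (log2 fold change 1.09, SE 0.13, adjusted p = 0.00299, limma). *Plin2*, which coats lipid droplets, fell from 2200 ± 321 to 851 ± 180 FPKM (log2 fold change −1.38, SE 0.20, adjusted p = 0.00579, limma).

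**Figure D3:**
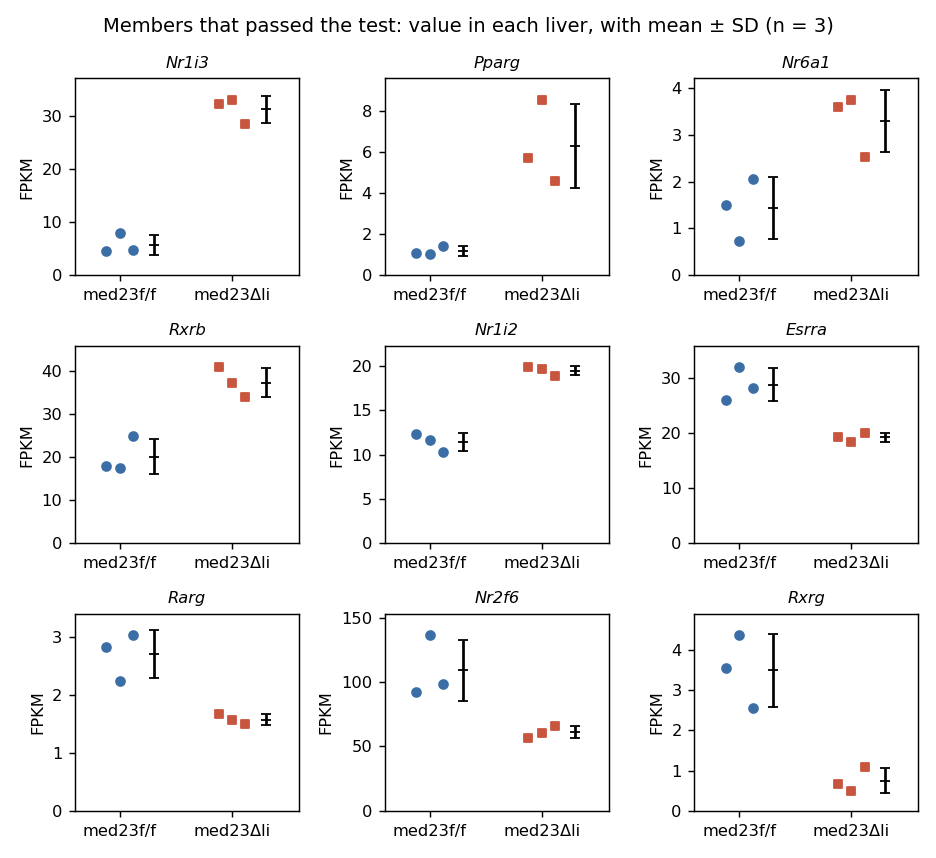
FPKM of the 9 receptors that passed the test in each liver (points), with the mean ± SD (n = 3) beside each group and axes that start at 0. In each panel the 3 med23Δli livers lie wholly above or wholly below the 3 controls, with *Nr1i3* at 28.3 to 33.0 FPKM against 4.50 to 7.89 FPKM.

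The LXRs sense oxysterols and control cholesterol export and fatty acid synthesis. *Nr1h3*, which encodes LXRα, was at 60.3, 71.3 and 39.9 FPKM in controls and at 42.5, 43.5 and 40.7 FPKM in med23Δli livers. Control replicate 3 lay below the 3 med23Δli livers and the other controls above them. *Nr1h3* did not pass (log2 fold change −0.40, SE 0.21, adjusted p = 0.202, limma), but without control replicate 3 it did (log2 fold change −0.64, adjusted p = 0.0162, limma). Without control replicate 2 the change shrank to −0.22 (adjusted p = 0.452, limma). Its exons overlap those of *Gm13783*. *Nr1h2*, which encodes LXRβ, was at 32.6, 47.7 and 37.0 FPKM in controls and at 43.4, 38.9 and 39.6 FPKM in med23Δli livers. The groups overlapped and *Nr1h2* did not pass (log2 fold change 0.07, 95% interval −0.30 to 0.45, adjusted p = 0.776, limma). *Nr1h5*, which encodes a lanosterol-activated relative of FXR, stayed under the filter at 0.159 to 0.430 FPKM. Of 12 genes known as LXR targets, 1 rose, 1 fell and 10 did not pass (median log2 fold change −0.13), with 0 or 1 higher and 0 to 2 lower when 1 library was left out. *Arl4c*, a small GTPase, rose from 1.49 ± 0.394 to 3.73 ± 0.845 FPKM (log2 fold change 1.28, SE 0.25, adjusted p = 0.0145, limma) and lost the call without med23Δli replicate 1 or 2 (adjusted p up to 0.0641). *Mylip*, which marks the LDL receptor for breakdown, fell from 2.57 ± 0.512 to 1.44 ± 0.252 FPKM (log2 fold change −0.79, SE 0.22, adjusted p = 0.0397, limma) and kept the call only without control replicate 1.

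The retinoic acid receptors bind the acid form of vitamin A and act with an RXR. *Rarg*, which encodes RARγ (chr15:102234938-102257517), was at 2.83, 2.24 and 3.03 FPKM in controls and at 1.67, 1.56 and 1.49 FPKM in med23Δli livers. The groups did not overlap. *Rarg* fell 1.71-fold, from 2.70 ± 0.415 to 1.58 ± 0.0899 FPKM (SD, n = 3), a change of −0.73 on the log2 scale (SE 0.18, adjusted p = 0.0272, limma). The call was lost without control replicate 1 (adjusted p = 0.0676, limma) and without med23Δli replicate 1, 2 or 3 (adjusted p = 0.0861, 0.0898 and 0.0879, limma), and without any filter (0.0552). *Rarb*, which encodes RARβ and is itself a known retinoic acid target, was at 0.934 to 1.75 FPKM in controls and 0.677 to 0.718 FPKM in med23Δli livers. These ranges did not overlap, yet *Rarb* did not pass (log2 fold change −0.68, adjusted p = 0.120, limma), and its exons overlap those of *Top2b*. *Rara*, the most abundant of the 3 in these livers, was at 6.04 to 7.22 and 6.28 to 7.46 FPKM (log2 fold change 0.06, adjusted p = 0.795, limma), with a sign that turned without med23Δli replicate 1. *Rara* made up 62.7 ± 2.28% of RAR transcripts in controls and 74.9 ± 0.727% in med23Δli livers, and *Rarg* 25.9 ± 3.05% and 17.4 ± 0.363% (SD, n = 3).

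Of 10 tested genes that bind, make or break down retinoids, 3 rose, 2 fell and 5 did not pass (median log2 fold change 0.06). *Rbp4*, the plasma carrier of retinol made by hepatocytes, rose from 2095 ± 351 to 3745 ± 432 FPKM (log2 fold change 0.84, SE 0.18, adjusted p = 0.0171, limma). *Cyp26a1*, which breaks down retinoic acid, rose from 1.69 ± 0.477 to 4.57 ± 2.26 FPKM (log2 fold change 1.31, SE 0.34, adjusted p = 0.0336, limma). With 1 library left out *Rbp4* passed in 3 of 6 fits and *Cyp26a1* in 2, and between 0 and 2 genes of the list were higher and 0 or 1 lower.

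**Figure D4:**
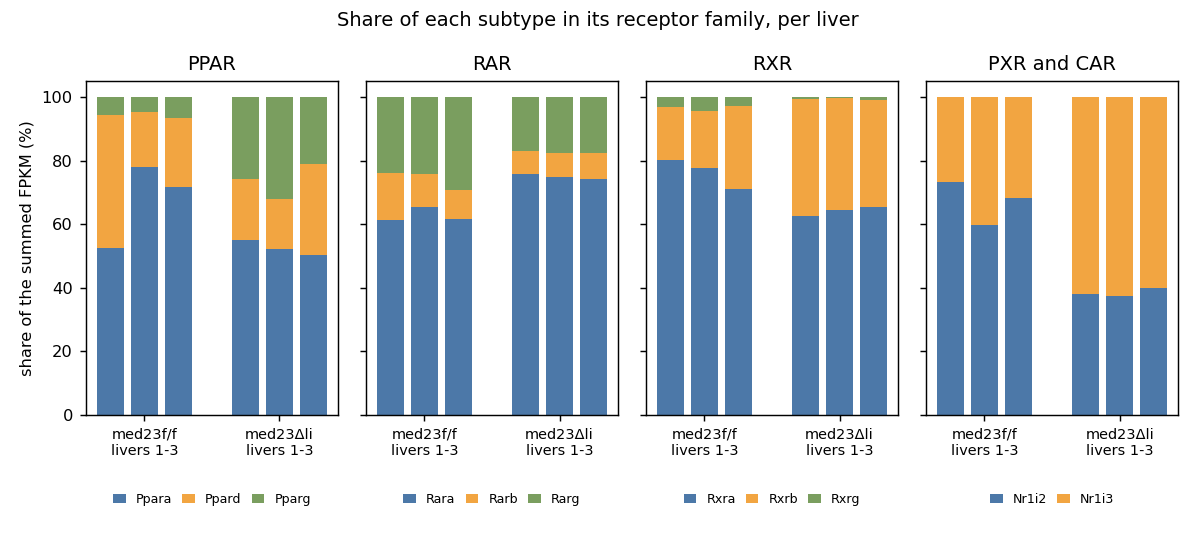
Share of each subtype, as a percent of the summed FPKM of its family, in each of the 6 livers for the PPARs, RARs, RXRs and the pair of PXR and CAR. The med23Δli livers show more *Pparg* (26.3% against 5.77% on average), more *Rxrb* (35.2% against 20.3%) and more *Nr1i3* (61.5% against 33.0%).

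Thyroid hormone receptors are the targets of T3, and TRβ is the main form in hepatocytes. *Thra* was at 2.63 to 3.38 FPKM in controls and 2.15 to 2.24 FPKM in med23Δli livers. The ranges did not overlap, yet *Thra* did not pass (log2 fold change −0.36, SE 0.16, adjusted p = 0.147, limma), and part of its exons lies opposite *Nr1d1*. *Thrb* was at 1.68 to 2.59 and 2.27 to 3.01 FPKM (log2 fold change 0.33, SE 0.21, adjusted p = 0.270, limma). *Thrb* made up 42.1 ± 2.93% of the pair in controls and 54.6 ± 3.62% in med23Δli livers (SD, n = 3). These shares did not overlap (exact permutation p = 0.1, 0.15 after Benjamini-Hochberg adjustment), though neither gene passed. Of 7 tested genes of thyroid hormone handling and response, 4 rose, none fell and 3 did not pass (median log2 fold change 0.76). *Crym*, which binds thyroid hormone in the cytosol, rose from 1.57 ± 0.336 to 9.27 ± 2.32 FPKM (log2 fold change 2.47, SE 0.23, adjusted p = 0.00139, limma). *Klf9*, a transcription factor that also answers to glucocorticoids and the clock, rose from 7.32 ± 1.41 to 24.3 ± 3.87 FPKM (log2 fold change 1.72, SE 0.18, adjusted p = 0.00188, limma). *Me1*, the malic enzyme, rose from 42.7 ± 3.52 to 59.8 ± 4.10 FPKM (log2 fold change 0.49, SE 0.13, adjusted p = 0.0338, limma) and passed in 2 of the 6 fits that left out 1 library. With any 1 library left out, 2 to 4 of the list were higher and 0 or 1 lower.

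*Vdr*, the vitamin D receptor, known to be scarce in hepatocytes, was at 0.0256 to 0.0992 FPKM and was not tested. Of the 2 tested genes of vitamin D handling neither passed. The more abundant one, *Gc*, the plasma carrier of vitamin D, was at 2394 to 2671 FPKM in controls and 2538 to 3321 FPKM in med23Δli livers (log2 fold change 0.17, SE 0.16, adjusted p = 0.464, limma).

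Among the steroid receptors none passed. *Nr3c1*, the glucocorticoid receptor, was at 9.03, 4.93 and 8.70 FPKM in controls and at 9.16, 10.4 and 10.8 FPKM in med23Δli livers. The groups did not overlap, though the gap between the nearest livers was narrow, and *Nr3c1* did not pass (log2 fold change 0.46, SE 0.23, adjusted p = 0.186, limma). *Nr3c2*, the mineralocorticoid receptor, was at 0.938 to 1.11 and 0.762 to 0.960 FPKM (log2 fold change −0.22, adjusted p = 0.480, limma). *Esr1*, the estrogen receptor α, was at 0.452 to 1.98 and 0.873 to 1.37 FPKM (log2 fold change 0.44, adjusted p = 0.542, limma). With 1 library left out the *Esr1* change ran from 0.08 to 1.03, the latter without control replicate 1 (adjusted p = 0.0579, limma). *Pgr*, the progesterone receptor, was at 0 in 5 libraries and at 0.00447 FPKM in med23Δli replicate 2. Of 11 tested genes of glucocorticoid handling and response, 1 rose, 2 fell and 8 did not pass (median log2 fold change 0.79). *Fkbp5*, a chaperone that lowers hormone binding by the receptor, fell from 21.1 ± 4.48 to 10.2 ± 1.37 FPKM (log2 fold change −1.03, SE 0.19, adjusted p = 0.0111, limma). *Hsd11b1*, which regenerates active glucocorticoid, fell from 164 ± 38.3 to 77.9 ± 9.30 FPKM (log2 fold change −1.05, SE 0.20, adjusted p = 0.0118, limma). *Tsc22d3* (GILZ) rose from 23.8 ± 5.60 to 40.5 ± 1.89 FPKM (log2 fold change 0.79, SE 0.19, adjusted p = 0.0236, limma). *Fkbp5* lost the call without med23Δli replicate 1 (adjusted p = 0.0513, limma), *Hsd11b1* without replicate 3 (0.0503) and *Tsc22d3* without any of the 3. Between 0 and 6 genes of this list were higher when 1 library was left out, and 1 to 3 lower.

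The NR4A receptors are immediate early genes that answer within minutes to stress and hormones, without a known ligand. *Nr4a1* was at 5.04, 2.35 and 24.3 FPKM in controls and at 17.5, 23.9 and 8.98 FPKM in med23Δli livers. Control replicate 3 held the highest value of all 6 livers, and the groups overlapped. *Nr4a1* did not pass (log2 fold change 1.21, SE 0.76, adjusted p = 0.278, limma) but did without control replicate 3 (log2 fold change 2.14, adjusted p = 0.0156, limma). Without control replicate 2 the log2 fold change of *Nr4a1* shrank to 0.48 (adjusted p = 0.649, limma). *Nr4a2* was at 0.421, 0.0596 and 1.02 FPKM in controls and at 1.25, 1.30 and 0.825 FPKM in med23Δli livers, and again control replicate 3 lay within the other group. Its log2 fold change was 1.41 (SE 0.64, adjusted p = 0.147, limma), and 2.06 (adjusted p = 0.0284, limma) without that library. Without control replicate 2 it was 0.66 (adjusted p = 0.278, limma). *Nr4a3* lay under the filter at 0.0303 to 0.150 FPKM in controls and 0.377 to 0.433 FPKM in med23Δli livers, without overlap. With no filter on low values its log2 fold change was 1.35, at an adjusted p of 0.0350 (limma).

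The remaining members are orphan receptors, many of which repress or compete at sites of other receptors. *Nr2f6* (EAR2), a COUP-TF relative and the most abundant member in controls (chr8:71374123-71381960), was at 92.2, 136 and 98.6 FPKM in controls and at 56.5, 60.5 and 66.0 FPKM in med23Δli livers. The groups did not overlap. *Nr2f6* fell 1.79-fold, from 109 ± 23.8 to 61.0 ± 4.77 FPKM (SD, n = 3), a change of −0.82 on the log2 scale (SE 0.17, adjusted p = 0.0172, limma). The adjusted p was 0.0733 without med23Δli replicate 1 and 0.0642 without replicate 2 (limma). Its exons overlap those of *Ocel1* on the opposite strand, whose change was −0.05 on the log2 scale (adjusted p = 0.830, limma). *Nr2f2* (COUP-TFII), known from endothelial and stromal cells, was at 5.01 to 9.29 FPKM in controls and 6.16 to 6.88 FPKM in med23Δli livers (log2 fold change −0.11, adjusted p = 0.753, limma). Its sign turned without control replicate 1 (log2 fold change 0.10). *Nr2f1* (COUP-TFI) was at 0.286 to 0.444 FPKM and was not tested. Because *Nr2f6* outweighs its relatives, the summed COUP-TF level went from 117 ± 21.9 to 67.8 ± 5.05 FPKM (SD, n = 3).

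The estrogen-related receptors control mitochondrial genes with PGC-1 coactivators. *Esrra*, which encodes ERRα (chr19:6910977-6921813), was at 26.0, 31.9 and 28.2 FPKM in controls and at 19.2, 18.4 and 19.9 FPKM in med23Δli livers. The groups did not overlap. *Esrra* fell 1.50-fold, from 28.7 ± 2.97 to 19.2 ± 0.762 FPKM (SD, n = 3), a change of −0.58 on the log2 scale (SE 0.13, adjusted p = 0.0205, limma). The call was lost without med23Δli replicate 1, 2 or 3 (adjusted p = 0.0883, 0.0875 and 0.0608, limma). Its exons overlap those of *Trmt112* on the opposite strand (log2 fold change −0.17, adjusted p = 0.523, limma). *Esrrg* was at 0, 0 and 0.0160 FPKM in controls and at 0.311, 0.167 and 0.271 FPKM in med23Δli livers. Each med23Δli liver lay above the controls, at a level under the filter. With no filter the change of *Esrrg* was 1.71 on log2(FPKM + 0.1), at an adjusted p of 0.00988 (limma). *Esrrb*, known from stem cells, was at 0.0972 to 0.292 FPKM.

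*Nr6a1* (GCNF), known from germ cells and the embryo (chr2:38723370-38927688), was at 1.50, 0.736 and 2.06 FPKM in controls and at 3.59, 3.75 and 2.53 FPKM in med23Δli livers. The groups did not overlap. *Nr6a1* rose 2.29-fold, from 1.43 ± 0.666 to 3.29 ± 0.665 FPKM (SD, n = 3), a change of 1.23 on the log2 scale (SE 0.35, adjusted p = 0.0418, limma). It is the passing receptor that depended most on single libraries: leaving out any library other than control replicate 3 ended the call, with adjusted p up to 0.127 (limma) and log2 fold changes of 0.84 to 1.53 over the 6 fits. It was also lost with no filter on low values (adjusted p = 0.0833, limma). *Nr2c1* (TR2), a testicular orphan receptor, was at 2.76 to 3.65 and 2.65 to 2.86 FPKM (log2 fold change −0.14, adjusted p = 0.559, limma). *Nr2c2* (TR4) had the highest mean of the untested genes, at 0.146 to 0.287 FPKM in controls and 0.534 to 0.795 FPKM in med23Δli livers, without overlap. With no filter its log2 fold change was 1.15 (adjusted p = 0.0430, limma), and its exons overlap those of *Mrps25*. *Hnf4g*, a relative of the hepatocyte factor HNF4α, was at 0 to 0.0547 FPKM.

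Receptors act through coregulators, the coactivators and corepressors they recruit. Of 13 tested coregulator genes, 2 rose, none fell and 11 did not pass (median log2 fold change 0.15). With 1 library left out 1 to 5 were higher. *Tbl1xr1*, part of the NCoR corepressor complex, rose from 1.85 ± 0.174 to 3.57 ± 0.367 FPKM (log2 fold change 0.91, SE 0.16, adjusted p = 0.0103, limma) and passed in each of the 6 fits that left out 1 library. *Nrip1* (RIP140), a ligand-dependent corepressor, rose from 0.545 ± 0.274 to 1.59 ± 0.316 FPKM (log2 fold change 1.48, SE 0.38, adjusted p = 0.0303, limma) and passed in 2 of those fits. Of 8 tested nuclear receptors outside the 34, 2 rose, none fell and 6 did not pass (median log2 fold change 0.56). With 1 library left out, 2 to 4 were higher and 0 or 1 lower. Among those that rose was the clock receptor *Nr1d2* (log2 fold change 2.16, SE 0.35, adjusted p = 0.00764, limma).

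**Figure D5:**
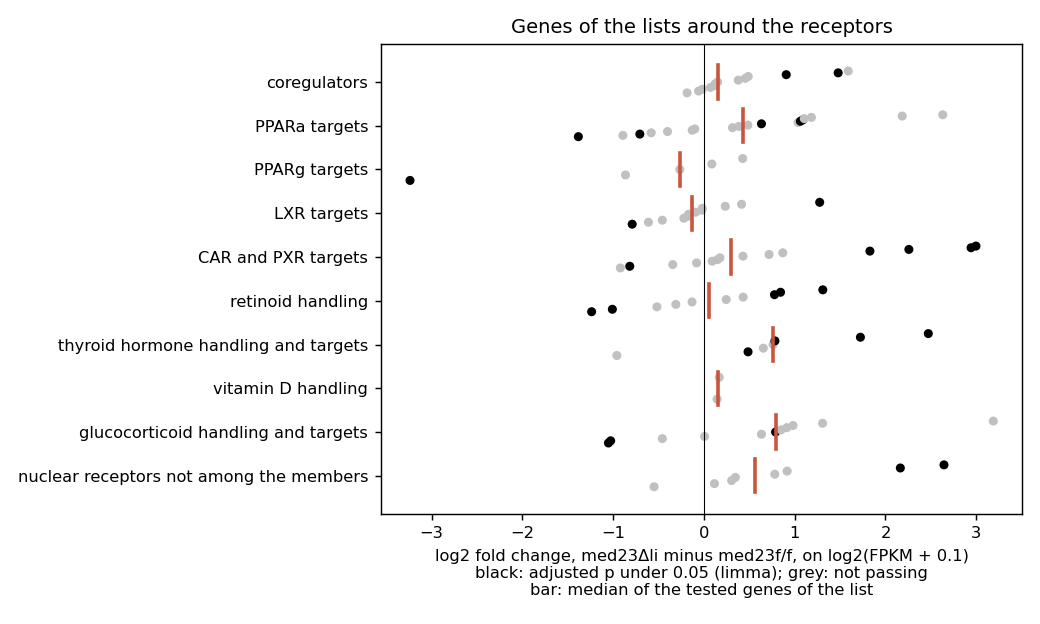
Log2 fold change (med23Δli minus med23f/f, on log2(FPKM + 0.1)) of each tested gene of the 10 lists around the receptors; black points have an adjusted p under 0.05 (limma) and the bar is the median of the list. Medians run from −0.26 (PPARγ targets) to 0.79 (glucocorticoid handling and targets), and 5 of the 10 lists hold both genes that rose and genes that fell.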

How the data were processed

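RNA of 6 livers, 3 per genotype and 1 mouse per library, was measured by RNA-seq. The deposited values are FPKM per gene and library, which the authors obtained on mm10 with TopHat and Cuffdiff after quality control with FastQC, with versions not given in the sources used here. Columns holding the authors' own comparison (fold change, test statistic, p-value, q-value) were not used, and 0 columns were left unmapped. FPKM carry no counts, so the depth of each library is unknown from the deposited values (the study's methods state only a median over samples) and no counting interval is given. The extraction and library protocols name no strand marking.

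Genes averaging 0.5 FPKM or more were compared as log2(FPKM + 0.1) with limma 3.58.1 in R 4.3.3 (eBayes with a mean-variance trend, Benjamini-Hochberg adjustment over 11956 genes) and passed at an adjusted p under 0.05. The pseudocount of 0.1 makes fold changes of low genes too small. On simulated data of this comparison 90% of 200 changed genes of the 11956 were recovered, with 8 false calls. That percentage was not split by size of change. Recovery at the smaller sizes seen for receptors such as *Esrra*, *Rarg* and *Nr1i2* was not tested. Single shares were compared by a two-sided exact permutation test, and family shares were chosen after values were seen. After Benjamini-Hochberg adjustment no share or family sum had a permutation p under 0.15. The labels do not say whether replicate numbers pair samples. Residuals of same-numbered libraries correlated at −0.02, −0.05 and −0.12 over all tested genes together, where an effect on some genes would not show.

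Members and gene lists (targets, ligand handling, coregulators, cell type markers) were chosen with earlier results of these data known. Passing members and the 6 most abundant ones are given with the value of each library, and each list with at most 3 passing genes, those with the smallest adjusted p, except that a few such genes are not reported here. Gene positions are from GENCODE M21 on GRCm38 (mm10), and promoter sequences from RefSeq GRCm38.p6, which matched 31 of 34 members. Tables were made in Python 3.11.15. Alternatives were other pseudocounts, filters, scalings, variance models and thresholds, a replicate block and leaving out each library.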

Additional observations from a re-analysis of the deposited data

How the results depend on the processing

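The 25 tested receptors were refitted under 18 other settings, which gave 447 values. No passing receptor changed direction. For passing receptors 137 values kept the call and 25 lost it, and for the others 277 stayed outside the threshold on the same side, 4 passed (*Rarb* at an unadjusted p under 0.05, and *Nr1h3*, *Nr4a1* and *Nr4a2* without control replicate 3) and 4 turned sign. With any 1 library left out, log2 fold changes ran from −0.32 to 0.21 for *Ppard*, from −0.0096 to 0.13 for *Rara*, from −0.0485 to 0.22 for *Nr1h2*, from −0.34 to 0.10 for *Nr2f2* and from −0.22 to 0.0169 for *Med23*. None of these passed where its sign turned.

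The count of higher receptors, 5, was 3 at an adjusted p under 0.01 and 3 (without med23Δli replicate 1) to 7 (without control replicate 3) with 1 library left out. The count of lower receptors, 4, was 1 at 0.01, 2 with a replicate block and 1 (without med23Δli replicate 1 or 2; 2 without replicate 3) to 5 with 1 library left out. The 3 receptors higher by over 2-fold became 5 without a filter and 2 to 6 (without control replicate 3) with 1 library left out, while 1 was lower by over 2-fold in each such fit. Over all genes, 1384 higher and 1133 lower became 344 and 239 at 0.01 and 2449 and 2047 at an unadjusted p under 0.05, and 401 to 1750 and 349 to 1429 with 1 library left out. Over 2-fold, 532 higher and 412 lower became 285 and 186 at 0.01, and 319 to 730 and 268 to 529 with 1 library left out. A pseudocount of 1 left 229 lower by over 2-fold. The cause of these shifts was not tested.

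Whether the replicate numbers pair samples is not stated in the labels. With them as a replicate block 809 genes were higher and 614 lower, and 4 receptors were higher and 2 lower, with *Nr6a1*, *Rarg* and *Esrra* outside the threshold (adjusted p = 0.0765, 0.0746 and 0.0609, limma).

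The scaling settings moved the median log2 fold change of all genes to between −0.02 and 0.05. The counts behind the members under 0.5 FPKM cannot be read from FPKM. Whether replicates shared litters, cages or dates is not stated in the labels.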

Other observations

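The receptors varied more between the control livers than between the med23Δli livers. Over the 25 tested members the median coefficient of variation of FPKM was 21.9% in controls and 8.56% in med23Δli livers, and 22 of the 25 had the larger value in controls. Over all tested genes the medians were 17.8% and 10.3%, and 72.5% of genes varied more in controls. The pattern was noticed after the values were seen, rests on 3 livers per group and was not tested.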
